A study of Homo sapiens with 12 samples.

Results

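In H460 large cell carcinoma cells, 58 of 19403 protein-coding genes were nearly silent with control siRNA and expressed after NRF2 siRNA. A gene was included if it was under 0.7 FPKM in both control siRNA libraries and at 2 FPKM or more in both NRF2 siRNA libraries. FPKM is a level in sequenced fragments, scaled to transcript length and library size. The H460 values chose these genes and are therefore given below as a description, with no test, whereas A549 and H2023 played no part in the choice. Across 57815 gene identifiers of all types, 77 met both limits, and the 19 left out were 10 long noncoding RNAs, 1 small nuclear RNA, 2 pseudogenes and 6 identifiers with no match in the annotation.

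The study sequenced RNA of 3 established human lung cancer lines in 12 libraries. According to the labels, A549 and H2023 are lung adenocarcinoma, H460 is lung large cell carcinoma, and all 3 are positive for a KEAP1 mutation, so the control libraries carry it too. Cells were transfected with control siRNA or with NRF2 siRNA and collected 48 hours later, with 2 libraries per group. The NRF2 siRNA libraries numbered 0 were made with siRNA 28 and those numbered 1 with siRNA 30, so the spread within an NRF2 siRNA group contained the difference between the siRNAs. A549 was grown in high glucose medium and its RNA was depleted of ribosomal RNA, while H2023 and H460 were grown in low glucose medium and polyA RNA was selected, so line, medium and protocol cannot be told apart. The knockdown was transient. These are bulk samples, in which a few cells with a high level and many cells with a low level cannot be told apart.

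NRF2, encoded by NFE2L2, is a bZIP transcription factor that binds antioxidant response elements together with small MAF proteins and activates genes of redox defence, detoxification and NADPH supply. KEAP1 is the adaptor that hands NRF2 to a ubiquitin ligase, and its mutation in lung cancer leaves NRF2 stable and constantly active. Genes that appear after NRF2 is depleted are thus not those that NRF2 is best known for.

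NFE2L2 itself was at 144 and 99.5 FPKM in the H460 control libraries, 6.54 with siRNA 28 and 12.2 with siRNA 30. It was at 38.2 and 30.9 FPKM against 5.31 and 7.84 in A549, and at 120 and 118 FPKM against 7.74 and 6.8 in H2023. The groups did not overlap in any line. The libraries held 12732 to 13909 genes at 1 FPKM or more. Mitochondrial transcripts took 8.56% and 13.14% of the FPKM sum in the H460 control libraries and 20.8% and 25.96% in the H460 NRF2 siRNA libraries, and their part in the values below was tested only by leaving them out, which brought the number of genes within the limits to 83. The deposited values give no depth per library, so a low FPKM carries no counting interval here.

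In H460, the mean of the control libraries lay between 0.0196 and 0.674 FPKM over the 58 genes, with a median of 0.352. The mean of the NRF2 siRNA libraries lay between 2.11 and 14.7 FPKM, with a median of 4.02. PRR15 was the only member listed at 0 in an H460 library, and that was a control library. The genes did not become abundant. The median member was at 3.89 FPKM with siRNA 28 and at 3.05 FPKM with siRNA 30, above 50.9% and 48.8% of all protein-coding genes in those libraries. Only 62.2% and 61.7% of all protein-coding genes were at 0.7 FPKM or more there, so the median member ranked low among expressed genes. Only 2 members reached 10 FPKM with siRNA 28 and 5 with siRNA 30. Of the 7648 protein-coding genes under 0.7 FPKM in both H460 control libraries, these 58 were 0.758%, another 148 reached 2 FPKM with exactly 1 of the siRNAs, and 6829 stayed under 0.7 FPKM with both.

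**Figure D1:**
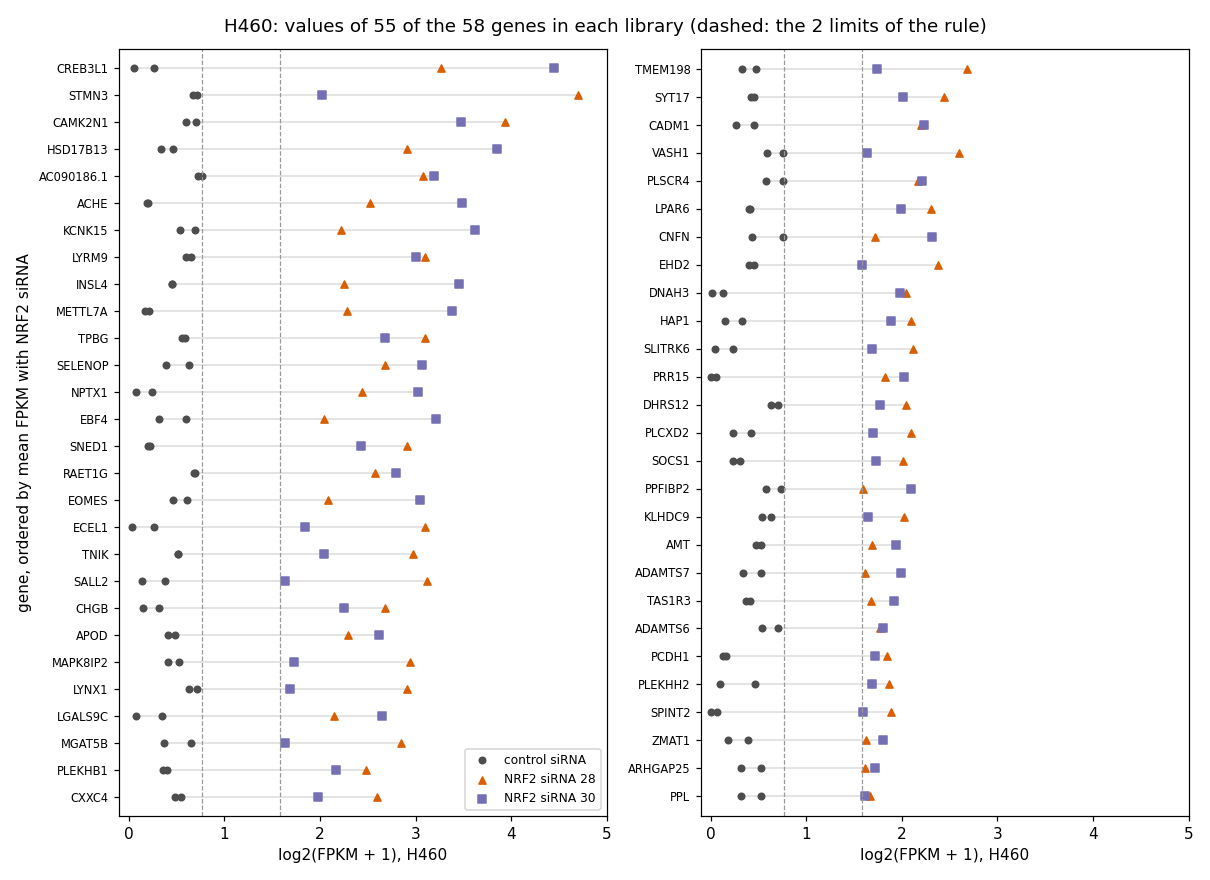
FPKM of 55 of the 58 genes in the 4 H460 libraries on a log2(FPKM + 1) axis, 1 gene per line, with grey bars from the lowest to the highest library. Control points lie left of the 0.7 FPKM limit and NRF2 siRNA points right of the 2 FPKM limit, as the rule requires, and STMN3 and CREB3L1 reach furthest, STMN3 with siRNA 28 and CREB3L1 with siRNA 30.

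The limits cut through a continuum. Nearest inside the control limit were AC090186.1 at 0.651 and 0.697 FPKM, PLSCR4 at 0.494 and 0.69, and VASH1 at 0.504 and 0.685. Nearest outside it were AMOT at 0.442 and 0.704 FPKM, TNFRSF14 at 0.654 and 0.704, and SLC46A3 at 0.507 and 0.715. At the other limit, EHD2 was inside at 4.21 and 2.0 FPKM, SPINT2 at 2.69 and 2.01, and PPFIBP2 at 2.01 and 3.28, while CHST2 at 1.99 and 5.41 FPKM, SH3TC1 at 4.15 and 1.97, and GLI1 at 1.92 and 4.26 were left out. Limits of 0.5 or 1 FPKM for the controls gave 37 or 105 genes, and limits of 1.5 or 3 FPKM for NRF2 siRNA gave 100 or 27. The read support was modest as well. The authors' mean normalised count over the H460 libraries had a median of 73.6 for the members, was 30 or more for 49 of them and under 20 for 6.

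The members are described by their known roles, a grouping made after the genes were seen. STMN3 (ENSG00000197457.5, chromosome 20, 62271058 to 62289035, minus strand, GRCh37) encodes a stathmin family protein that destabilises microtubules in neurons. It was at 0.642 and 0.59 FPKM in the H460 control libraries, 24.9 with siRNA 28 and 3.05 with siRNA 30, so its high mean rests on siRNA 28. CAMK2N1 (ENSG00000162545.5, chromosome 1, 20808884 to 20812703, minus strand), an inhibitor of calcium/calmodulin-dependent kinase II, was at 0.517 and 0.628 FPKM in the control libraries, 14.3 with siRNA 28 and 10.1 with siRNA 30. ACHE, the enzyme that breaks down acetylcholine, was at 0.146 and 0.138 FPKM against 4.77 and 10.2.

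CHGB (ENSG00000089199.5, chromosome 20, 5892156 to 5905999, plus strand), a granin of dense-core secretory granules, was at 0.112 and 0.245 FPKM in the H460 control libraries, 5.43 with siRNA 28 and 3.77 with siRNA 30. NPTX1, a secreted neuronal pentraxin, was at 0.0538 and 0.184 FPKM against 4.44 and 7.14. Other members with roles described in neurons or at synapses were HAP1, a huntingtin-associated trafficking protein, MAPK8IP2, a JNK scaffold, SYT17, a synaptotagmin relative, SLITRK6, a neurite-regulating membrane protein, ECEL1, a metallopeptidase of neurons, and LYNX1, a modulator of nicotinic receptors. Among them the lowest control value was 0.0232 FPKM, for ECEL1, and the highest NRF2 siRNA value was 7.54 FPKM, for the same gene with siRNA 28.

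KCNK15, a potassium channel family member, was at 0.451 and 0.613 FPKM with control siRNA, 3.65 with siRNA 28 and 11.3 with siRNA 30, so siRNA 30 gave the higher value.

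The transcriptional regulators included the member with the highest mean. CREB3L1 (ENSG00000157613.6, chromosome 11, 46299213 to 46342959, plus strand), a bZIP factor that is held in the endoplasmic reticulum membrane and released by cleavage, was at 0.199 and 0.0392 FPKM in the H460 control libraries, 8.64 with siRNA 28 and 20.8 with siRNA 30. EOMES, a T-box factor of early development and lymphocytes, was at 0.529 and 0.373 FPKM against 3.24 and 7.27. EBF4, an early B cell factor relative, was at 0.249 and 0.511 FPKM against 3.11 and 8.28. SALL2, a zinc finger factor, and CXXC4, a CXXC-domain protein that dampens Wnt signalling, were higher with siRNA 28 than with siRNA 30, at 7.68 and 2.11 FPKM for SALL2 and 5.06 and 2.93 FPKM for CXXC4. SOCS1, the feedback inhibitor of JAK-STAT signalling, was at 0.236 and 0.173 FPKM against 3.04 and 2.32.

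Some members belong to cell adhesion, junctions and the extracellular matrix. CADM1, an immunoglobulin-type adhesion molecule, was at 0.369 and 0.204 FPKM with control siRNA and at 3.58 and 3.68 FPKM with NRF2 siRNA. PPL, the plakin that links keratin filaments to desmosomes, was at 0.439 and 0.247 FPKM against 2.17 and 2.06. PCDH1, a protocadherin of airway epithelium, SNED1, a matrix protein, and ADAMTS6 and ADAMTS7, secreted metalloproteases, were also members, with NRF2 siRNA values between 2.05 and 6.53 FPKM. EHD2 (ENSG00000024422.7, chromosome 19, 48216679 to 48246391, plus strand), an ATPase at the neck of caveolae, was at 0.368 and 0.323 FPKM against 4.21 and 2.0.

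Secreted factors and lipid enzymes made up another group. HSD17B13, a lipid droplet enzyme of liver, was at 0.373 and 0.263 FPKM in the H460 control libraries, 6.54 with siRNA 28 and 13.4 with siRNA 30. METTL7A, a membrane protein of lipid droplets, was at 0.159 and 0.121 FPKM against 3.85 and 9.4. INSL4, an insulin-like peptide of placenta, was at 0.372 and 0.363 FPKM against 3.77 and 9.95. SELENOP, the selenium transport protein of plasma, was at 0.551 and 0.31 FPKM against 5.4 and 7.38, and APOD, a lipocalin that carries small lipids, at 0.328 and 0.397 against 3.92 and 5.13. The higher value came with siRNA 30 in all of these genes.

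The remaining members had varied roles. PRR15, a proline-rich protein, was at 0 and 0.0393 FPKM in the H460 control libraries and at 2.53 and 3.05 FPKM with NRF2 siRNA, and DNAH3, a heavy chain of the dynein that moves cilia, was at 0.00565 and 0.0926 FPKM against 3.13 and 2.95. These were among the members nearest to 0 with control siRNA, together with SPINT2. LYRM9, of a family of small mitochondrial proteins, was at 0.567 and 0.514 FPKM against 7.58 and 7.01. MGAT5B, a brain glycosyltransferase of N- and O-mannosyl glycans, was at 0.292 and 0.568 FPKM against 6.21 and 2.11. LGALS9C, a galectin, was at 0.269 and 0.0567 FPKM against 3.44 and 5.28. AMT of the glycine cleavage system, TAS1R3, a subunit of sweet and umami taste receptors, ARHGAP25, a GTPase-activating protein for Rac, PLEKHB1, KLHDC9 and ZMAT1, lay between 2.06 and 4.59 FPKM with NRF2 siRNA.

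The promoters of these genes had no common sequence type. RefSeq promoters (GRCh38.p14, from 250 bases before to 50 bases after the start, first listed start for the 10 genes with several) were matched to 42 of the 58 genes. The median number of CpG dinucleotides was 17 against 22 over 15843 promoters, and 27 of the 42, 64.3%, held 10 or more against 73.0% of all. STMN3 and INSL4 are shown because they stand for both kinds among the genes with high values in H460, with 35 and 1 CpG in capitals. SELENOP is shown because it holds both an antioxidant response element core, on the minus strand relative to the gene, and a TATA box, and these are its capitals.
STMN3, chr20:63652717-63653016, minus strand: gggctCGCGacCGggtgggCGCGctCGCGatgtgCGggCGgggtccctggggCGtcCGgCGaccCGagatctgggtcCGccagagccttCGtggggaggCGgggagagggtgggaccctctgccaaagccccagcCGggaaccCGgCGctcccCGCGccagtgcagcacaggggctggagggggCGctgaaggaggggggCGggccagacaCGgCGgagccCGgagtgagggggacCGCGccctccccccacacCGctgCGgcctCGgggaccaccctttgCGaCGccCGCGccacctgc
INSL4, chr9:5231169-5231468, plus strand: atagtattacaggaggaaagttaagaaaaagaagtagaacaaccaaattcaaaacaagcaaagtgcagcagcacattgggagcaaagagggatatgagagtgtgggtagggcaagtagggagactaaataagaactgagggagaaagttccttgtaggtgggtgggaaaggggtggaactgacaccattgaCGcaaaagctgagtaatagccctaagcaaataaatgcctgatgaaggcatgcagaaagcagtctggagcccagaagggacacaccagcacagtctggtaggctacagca
SELENOP, chr5:42811843-42812142, minus strand: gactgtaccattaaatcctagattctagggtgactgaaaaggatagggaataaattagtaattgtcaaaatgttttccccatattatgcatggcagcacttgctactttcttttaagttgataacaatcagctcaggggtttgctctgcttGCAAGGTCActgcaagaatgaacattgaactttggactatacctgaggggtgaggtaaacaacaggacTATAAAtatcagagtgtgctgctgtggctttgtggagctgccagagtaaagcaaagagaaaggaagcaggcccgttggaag
The STMN3 stretch is dense in CpG over its whole length, whereas INSL4 holds a single one before the start.

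The antioxidant response element core, searched as TGACNNNGC on both strands, was present in 5 of the 42 promoters (CNFN, PPFIBP2, SELENOP, SLITRK6 and ZMAT1), 11.9% against 14.3% of all promoters. The AP-1 letters TGANTCA were in 3 (MGAT5B, PLEKHB1 and SLITRK6), 7.14% against 5.75%. These letters read the same on both strands and can overlap an antioxidant response element core, and SLITRK6 held both motifs. The TATA letters TATAAA were in 5, 11.9% against 9.63%. The left part of the site of REST, the repressor of neuronal genes, searched as TCAGCACC, was in 0 of the 42 against 1.7% of all. None of these shares lay far from that of all promoters, and the windows are short.

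The genes were not grouped on the genome. They lay on 20 chromosomes, with at most 6 on a single one, chromosome 3, and the closest pair, SYT17 and DNAH3 on chromosome 16, were 1664779 bases apart. A total of 8 members overlapped another protein-coding or long noncoding gene on the same strand and 26 on the opposite strand. In some pairs the partner was higher as well. PLCXD2, of the phospholipase C X-domain family, was at 0.174 and 0.342 FPKM against 3.27 and 2.24, and PHLDB2 on the same strand was at 1.69 and 1.67 FPKM against 7.67 and 4.53. TMEM198 was at 0.251 and 0.392 FPKM against 5.41 and 2.34, and CHPF opposite it, a chondroitin synthesis factor, was at 18.6 and 18.7 FPKM against 82.0 and 52.5. AC090186.1 is uncertain: it lies opposite PCMTD1, which was at 3.93 and 3.41 FPKM against 21.1 and 23.3, and its own mean normalised count was 0.227, although its FPKM was 7.43 and 8.14 with NRF2 siRNA. LGALS9C and RAET1G have near-identical relatives, and SPINT2 had a mean normalised count of only 10.1 in H460, so their H460 values are uncertain too.

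In each of the other lines taken alone, most of the genes silent in H460 reached 0.7 FPKM in at least 1 control library. In A549, 26 of the 58 were under 0.7 FPKM in both control libraries, 18 were at 2 FPKM or more in both and 14 lay between. In H2023 the numbers were 19, 17 and 22. Only 15 genes were under 0.7 FPKM in the control libraries of both lines, and 14 were at 2 FPKM or more in both. SPINT2 (chromosome 19, 38734675 to 38783255, plus strand), a Kunitz-type inhibitor of serine proteases that activate hepatocyte growth factor, was the extreme case. It was at 265 and 223 FPKM in A549 control libraries and 167 and 134 FPKM in H2023 control libraries, but at 0.0449 and 0.00152 FPKM in those of H460. CAMK2N1 was at 41.1 and 34.5 FPKM in A549 control libraries and 34.1 and 30.8 in those of H2023. HSD17B13, ACHE and APOD, in contrast, stayed under 0.7 FPKM in all 8 libraries of A549 and H2023.

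The direction seen in H460 was the common one in both other lines. In A549, both NRF2 siRNA libraries lay above both control libraries for 38 of the 58 genes, 65.5%, against 26.5% of all protein-coding genes with a value, and both lay below for 0 against 17.1%. In H2023 they lay above for 42 genes, 72.4%, against 26.8%, and below for 4, 6.9%, against 18.3%. In both lines at once they lay above for 31 genes, 53.4%, against 12.4%, and 9 genes were above in neither line. The groups overlapped for 20 genes in A549 and 12 in H2023. The median difference over all 58 genes was 0.34 in A549 and 0.62 in H2023 on the log2(FPKM + 1) scale, which understates changes of low genes, against 0.012 and 0.018 over all protein-coding genes with a value. These counts are descriptions of 2 libraries per group.

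**Figure D2:**
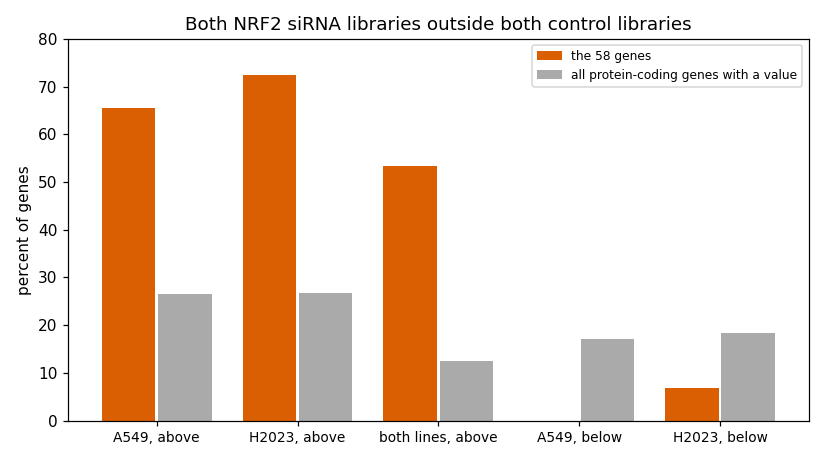
Percent of genes for which both NRF2 siRNA libraries lay above, or below, both control libraries, for the 58 genes (orange) and all protein-coding genes with a value (grey). The orange bars are higher than the grey ones for A549, H2023 and both lines together in the upward direction and lower in the downward direction, where A549 has 0 of 58.

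The same held at each control level. Among members under 0.7 FPKM in both A549 control libraries, NRF2 siRNA lay above for 16 of 26, against 28.3% of protein-coding genes at that level. For members between the limits it was 11 of 14 against 38.1%, and for those at 2 FPKM or more 11 of 18 against 23.6%. In H2023 the counts were 12 of 19 against 27.1%, 18 of 22 against 30.9%, and 12 of 17 against 25.9%. None of the 58 genes met the limits of the rule in A549 or H2023. The rule applied to A549 gave only CST4, and applied to H2023 it gave 8 genes (C1orf116, OVGP1, PGM2L1, SFT2D3, TNFSF15, TNNC1, TTLL6 and VGF). The opposite switch, 2 FPKM or more in both control libraries and under 0.7 in both NRF2 siRNA libraries, was made by 12 protein-coding genes in H460, 2 in A549 and 3 in H2023.

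Single genes were then tested with limma in A549, where 32 of the 58 had at least 1 FPKM in 2 of the 4 libraries, 7 of them only through the NRF2 siRNA libraries, while the other 26 were too low. CHGB was higher and 0 were lower, against 0.122% of 13898 genes called higher and 0.554% lower. Before adjustment, 16 members had p under 0.05 and were higher, against 8.27%, and 0 were lower, against 4.99%, but the 7 members above had to differ to be tested at all. Of the 21 members at 1 FPKM or more in both A549 control libraries, a restriction chosen after seeing the data, 1 was higher after adjustment against 0.0385% of such genes, and 9 were higher before it against 7.25%. CHGB stood at 10.2 and 10.7 FPKM in A549 control libraries, 69.6 with siRNA 28 and 57.2 with siRNA 30. Its log2 fold change was 2.49 ± 0.15 (SE), with an adjusted p of 0.00338 by limma, which rose to 0.118 when no filter on low values was applied. Without the A549 siRNA 30 library, 4 members passed. LPAR6, a receptor for lysophosphatidic acid, was at 0.421 and 0.299 FPKM against 2.78 and 1.09 and was tested only through its NRF2 siRNA libraries. It did not pass (adjusted p = 0.263 by limma), although its groups did not overlap.

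In H2023, 40 of the 58 genes were tested, 7 of them through the NRF2 siRNA libraries alone. In this line 2 members were higher and 0 were lower, against 0.327% of 14059 genes called higher and 0.583% lower. Before adjustment, 23 members had p under 0.05 and were higher, against 10.2%, and 0 were lower, against 6.68%. Of the 26 members at 1 FPKM or more in both H2023 control libraries, the same restriction, 2 were higher after adjustment against 0.3% of such genes, and 13 before it against 9.07%. EHD2, which passed, was at 63.5 and 68.3 FPKM in H2023 control libraries, 174 with siRNA 28 and 149 with siRNA 30, and its log2 fold change was 1.28 ± 0.16 (SE, adjusted p = 0.0467 by limma). Just over the threshold were CHGB, at 3.37 and 4.06 FPKM against 13.1 and 12.1 (adjusted p = 0.0544 by limma), and LYNX1, at 10.3 and 10.9 FPKM against 30.5 and 26.2 (adjusted p = 0.0545 by limma). The H2023 calls were fragile: 0 members passed without control library 0 or without control library 1, 12 passed without the siRNA 28 library and 14 without the siRNA 30 library.

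Several members with low values in the control libraries of A549 and H2023 had groups that did not overlap there. They did not meet the rule in either line and passed no test in the main fits. PCDH1 was at 0.775 and 0.486 FPKM in H2023 control libraries and 4.93 and 2.76 with NRF2 siRNA (adjusted p = 0.11 by limma), and at 0.384 and 0.484 FPKM against 1.24 and 0.998 in A549. KCNK15 was at 0.732 ± 0.106 FPKM against 2.65 ± 0.713 (SD, 2 libraries each) in H2023 (adjusted p = 0.145 by limma) and at 0.316 and 0.354 against 0.746 and 0.849 in A549. EOMES was at 0.416 and 0.244 FPKM against 0.89 and 1.61 in H2023 and at 0.35 and 0.401 against 0.777 and 0.76 in A549, and was too low to be tested. PCDH1 and KCNK15 reached the 1 FPKM needed for the H2023 test only in their NRF2 siRNA libraries. Under alternative settings, PCDH1 passed in 2 of 10 in H2023 and KCNK15 in 0 of 10. In PCDH1, KCNK15 and EOMES the NRF2 siRNA values were the higher ones in both lines.

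The values of HAP1 and DNAH3 had the same order. HAP1 was at 0.219 and 0.281 FPKM against 0.66 and 0.865 in A549 and at 0.439 and 0.3 against 1.42 and 0.998 in H2023. DNAH3 was at 0.284 and 0.44 FPKM against 1.01 and 0.911 in A549 and at 0.748 and 0.721 against 1.35 and 1.41 in H2023. In H2023 it entered the test only through its NRF2 siRNA libraries and did not pass (adjusted p = 0.366 by limma). AC090186.1 had the largest log2(FPKM + 1) difference of the members in H2023, with 0.631 and 2.84 FPKM against 7.39 and 16.0 (adjusted p = 0.144 by limma), but its mean normalised count there was only 0.721, and in A549 its groups overlapped.

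The average effect over the 8 libraries of A549 and H2023 was fitted with 4 group means that shared 1 estimate of spread. It could be tested for 29 members, of which 13 were higher and 0 lower, against 4.69% of 12279 genes called higher and 3.4% called lower. Before adjustment, 22 members had p under 0.05 and were higher, against 14.9%, and 0 were lower, against 9.76%. Because some members entered the test only through their NRF2 siRNA values, the 18 members at 1 FPKM or more in all 4 control libraries were also counted alone, a restriction chosen after seeing the data, and 7 of them were higher against 4.22% of such genes. The count was lower without any single A549 library or any single H2023 control library, but not without either H2023 NRF2 siRNA library. Fewer members could be tested where an NRF2 siRNA library was left out.

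CHGB had the largest average effect, 2.01 ± 0.12 (SE), and the smallest adjusted p of the members, 8.42e-05 by limma. EHD2 had 0.74 ± 0.1 (adjusted p = 0.00627), although in A549 it moved little, from 17.6 and 16.8 FPKM to 21.4 and 18.6. These 2 genes passed in all alternatives in which they could be tested.

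INSL4 was nearly as steady, passing in 14 of 16 alternatives. INSL4 was at 32.5 and 29.9 FPKM in A549 control libraries, 55.2 with siRNA 28 and 58.7 with siRNA 30, and at 2.61 and 2.1 FPKM against 6.08 and 4.42 in H2023. Its average effect was 0.87 ± 0.13 (adjusted p = 0.00786). All average effects in these paragraphs are limma values on the log2(FPKM + 1) scale.

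PLEKHH2, an actin-binding protein of kidney podocytes, had an average effect of 1.27 ± 0.2 (adjusted p = 0.0103) and was at 4.51 and 4.22 FPKM against 11 and 8.03 in A549 and at 2.3 and 1.48 against 10.1 and 5.62 in H2023. CADM1 had 1.27 ± 0.25 (adjusted p = 0.0237), with 9.74 and 7.46 FPKM against 13.2 and 12 in A549 and 3.25 and 5.07 against 12.9 and 29.8 in H2023, so the larger part came from H2023 and from siRNA 30. SPINT2, already abundant, was at 372 and 327 FPKM with NRF2 siRNA in A549 and at 306 and 222 in H2023, an average effect of 0.66 ± 0.14 (adjusted p = 0.0301). Groups did not overlap in either line for PLEKHH2, CADM1 or SPINT2, which passed in 13, 9 and 9 of 16 alternatives.

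Another 4 genes had larger adjusted p-values, and SELENOP and VASH1 in A549 and EBF4 in H2023 entered the test only through their NRF2 siRNA libraries. SELENOP, at 0.575 and 0.268 FPKM against 1.8 and 1.28 in A549 and 2.22 and 0.785 against 7.11 and 3.81 in H2023, had an average effect of 1.11 ± 0.24 (adjusted p = 0.0339). VASH1, a tubulin carboxypeptidase that restrains angiogenesis, had 0.61 ± 0.14 (adjusted p = 0.0415). RAET1G, a ligand of the NKG2D receptor of natural killer cells, had 0.93 ± 0.22 (adjusted p = 0.0425), and EBF4 had 0.63 ± 0.15 (adjusted p = 0.0477). They passed in 10 of 14, 7 of 14, 8 of 16 and 3 of 14 alternatives.

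**Figure D3:**
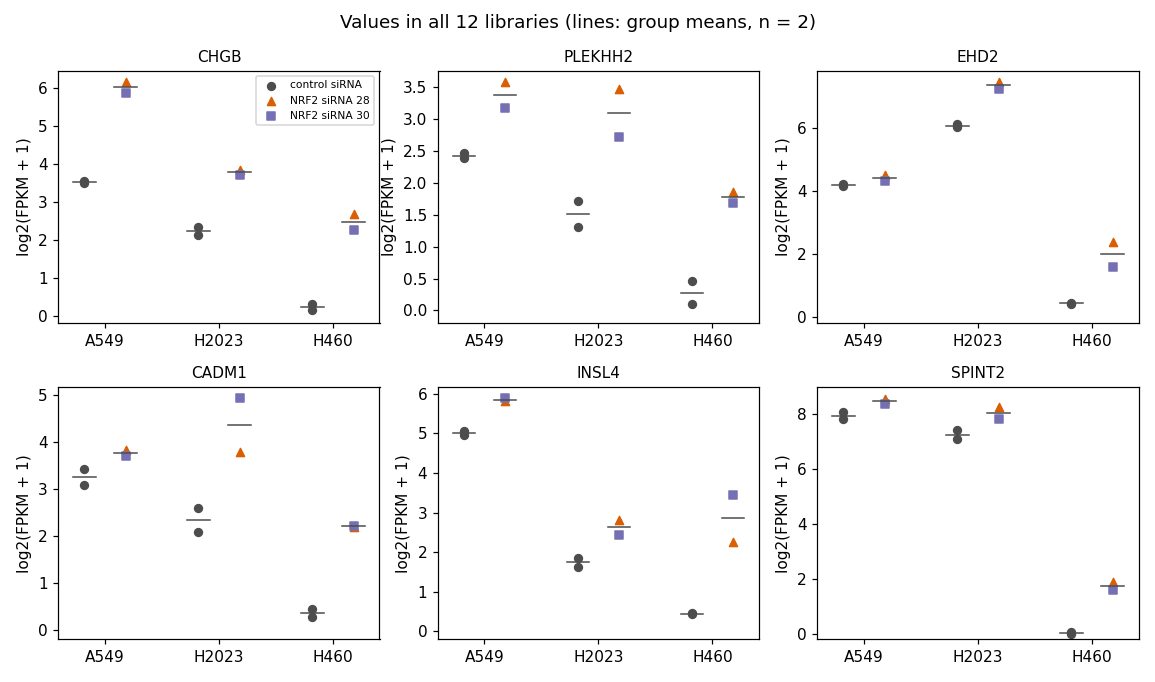
FPKM of 6 genes with a higher average effect in all 12 libraries, on a log2(FPKM + 1) axis that differs between panels. Control libraries are grey circles, siRNA 28 is a triangle and siRNA 30 a square, and lines are group means of 2 libraries. In each panel the NRF2 siRNA points lie above the control points in A549 and H2023, and also in H460, where the rule requires it. Values run from the 0.00152 FPKM of SPINT2 in H460 to its 372 FPKM in A549.

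Other members did not pass the test of the average effect, whether or not their groups overlapped. CAMK2N1, among the most abundant members in H460, was at 42.0 and 51.7 FPKM with NRF2 siRNA in A549 and 42.2 and 50 in H2023, above its control values in both lines, with an average effect of 0.39 ± 0.12 (adjusted p = 0.0871 by limma). CREB3L1, the member with the highest mean in H460, was at 1.01 and 0.505 FPKM against 1.04 and 2.26 in A549 and at 1.36 and 3.5 FPKM against 5.88 and 8.47 in H2023 without overlap in either line, and its average effect was 0.94 ± 0.26 (adjusted p = 0.0638 by limma). The glycoprotein gene TPBG, at 0.473 and 0.503 FPKM against 7.58 and 5.42 in H460, was at 9.1 and 9.32 FPKM against 11.2 and 7.91 in A549 and at 19.1 and 27.0 against 26.2 and 17.5 in H2023, so its groups overlapped in both. SYT17, CNFN, a protein of the cornified envelope, and DHRS12, a reductase relative, had average effects between 0.09 and 0.19 that did not pass.

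The 4 genes with lower values in H2023 were PPL, PLSCR4, SOCS1 and HSD17B13. PPL was at 7.46 and 5.41 FPKM in the H2023 control libraries and at 4.28 and 4.0 with NRF2 siRNA, a log2 fold change of -0.52 (adjusted p = 0.346 by limma). PLSCR4, of the phospholipid scramblase family, was at 8.31 and 12.2 FPKM against 8.21 and 8.09, while in A549 it was at 2.63 and 2.83 against 5.97 and 5.98. SOCS1 and HSD17B13 were under 0.7 FPKM in all H2023 libraries. The effects in A549 and H2023 differed at an adjusted p under 0.05 for 0 of the 29 members in limma, against 0.0% of 12279 genes with a greater and 0.00814% with a smaller effect in A549. At an unadjusted p under 0.05 the effect was greater in A549 for 3 of the 29 members, against 3.26% of genes, and smaller for 3 of the 29, against 4.25%. The smallest adjusted p was 0.233, for EHD2. A p that misses the threshold does not show that the lines respond alike.

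**Figure D4:**
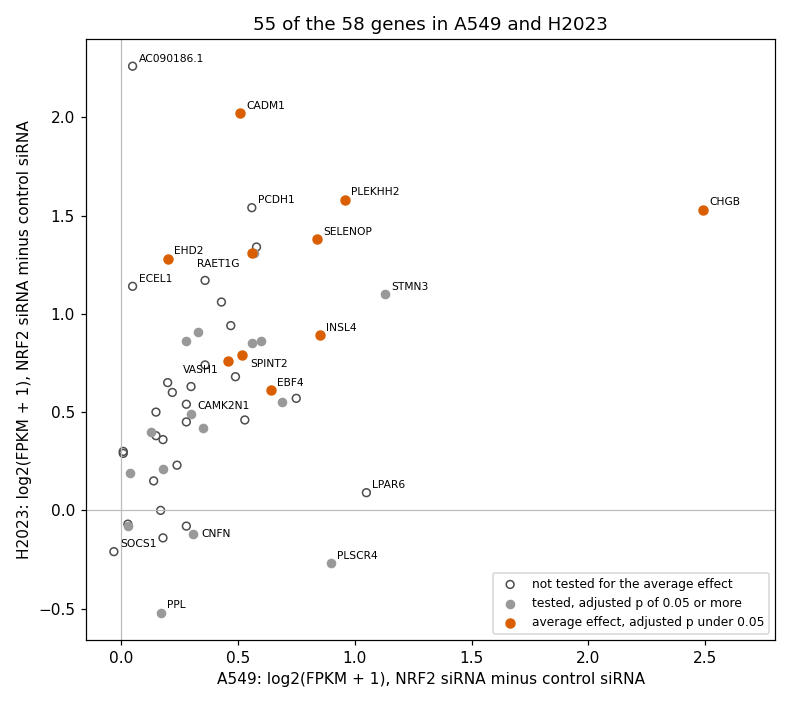
Difference between NRF2 siRNA and control siRNA on the log2(FPKM + 1) scale for 55 of the 58 genes, A549 on the horizontal and H2023 on the vertical axis, each point being 1 gene. Orange points passed the test of the average effect, grey points were tested and did not pass, and open circles were too low in at least 1 of the lines to be tested. Points concentrate in the upper right, CHGB lies furthest along the A549 axis, and PLSCR4 and PPL lie below 0 in H2023.

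The rule requires a value with both siRNAs in H460, but leaves their order free. The value was higher with siRNA 28 for 32 members and with siRNA 30 for 26, and for 33 the values were within 1.5 times of each other. STMN3 was the extreme for siRNA 28, and in the other lines it was also higher with that siRNA, at 11.6 and 4.34 FPKM in A549 and 13.6 and 4.2 FPKM in H2023. TNIK, a kinase of the Wnt pathway, followed the same order at 6.86 and 3.13 FPKM in H460, 2.04 and 0.843 in A549 and 6.05 and 2.06 in H2023. CREB3L1 and NPTX1 were higher with siRNA 30 in all 3 lines. Of the 13 members over 1.5 times higher with siRNA 28 in H460, 7 were higher with it in both A549 and H2023, and of the 12 over 1.5 times higher with siRNA 30, 7 were. Among other protein-coding genes at 2 FPKM or more in both H460 NRF2 siRNA libraries, these shares were 69.9% of 1546 and 52.8% of 1547, so the members did not stand out in this respect.

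Of the 58 genes, only CHGB (neuronal and neuroendocrine genes) and CAMK2N1 (CaMKII and neuronal calcium signalling) belonged to any of 14 lists of cell type and pathway genes. In H460, of the 10 other neuronal and neuroendocrine genes tested, SYP, a synaptic vesicle protein, was higher (1.23 and 0.914 FPKM against 5.77 and 7.08, adjusted p = 0.0189 by limma) and GAP43, a growth cone protein, was lower (2.88 and 1.87 against 0.402 and 0.373, adjusted p = 0.035 by limma), against 7.12% of 13446 genes called higher and 6.86% lower. CHGA, the granin most used as a neuroendocrine marker, was at 14.5 and 21.1 FPKM with control siRNA and at 7.77 and 2.88 with NRF2 siRNA. Of the 10 other genes around CaMKII, PPP3CA, a calcineurin catalytic subunit, was higher (21.4 and 22.6 FPKM against 42.5 and 72.8, adjusted p = 0.0387 by limma) and 0 were lower. In A549, CHGB alone was called among the 6 genes of the neuronal list that were tested, and in H2023 0 of 11 were called.

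Canonical NRF2 targets were lower in 24 of 30, 20 of 30 and 25 of 29 genes tested in A549, H2023 and H460, and 0 were higher. Other lists without a member moved in H460 too: 13 of 21 proliferation genes were lower and 0 higher, 5 of 18 mesenchymal and matrix genes were higher and 0 lower, and 4 of 10 inflammatory cytokine and chemokine genes were lower and 0 higher. With 0 lower in each, 3 of 19 interferon response genes, 3 of 22 p53 targets and 1 of 8 epithelial genes were higher. Of all genes tested in H460, 7.12% were called higher and 6.86% lower. Of the 10 immune markers, 8 were under 0.7 FPKM in all 4 H460 libraries, with PTPRC at most at 0.0146 FPKM and CD3E at most at 0.0267. The others were CD68, at 36.6 and 39.2 FPKM with control siRNA and 16.5 and 29.2 with NRF2 siRNA, and CD14, at 1.77 and 5.49 against 17.6 and 19.4. Only these 2 were tested, and 1 was called higher and 0 lower. The list summed to 38.7 and 45.1 FPKM with control siRNA, mostly CD68, and to 34.4 and 49.6 with NRF2 siRNA, mostly CD68 and CD14. All 5 endothelial markers were under 0.7 FPKM in every library. Of the 17 lung lineage genes, 13 were under 0.7 FPKM in all 4 H460 libraries and 9 in those of A549 and of H2023, and the list summed to 48.8 and 52.5 FPKM in H460 control libraries and 83.1 and 84.9 with NRF2 siRNA. The lung lineage factor NKX2-1 and the surfactant genes SFTPB and SFTPC were among those under 0.7 FPKM in all 12 libraries. The keratins KRT8 and KRT18 were at 298 FPKM or more in each, and KRT7 and KRT19 at 10.3 FPKM or more in H460. The epithelial markers EPCAM and CDH1 were low in H460. EPCAM was at 1.09 and 0.222 FPKM with control siRNA and 0.554 and 1.19 with NRF2 siRNA. CDH1 was at 0.149 and 0.525 FPKM against 0.37 and 1.17 in H460, and at 8.05 FPKM or more in every A549 and H2023 library.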

How the data were processed

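RNA sequencing of 12 libraries (3 lines, control siRNA or NRF2 siRNA, 2 libraries per group) was used. The study's methods name TopHat (genome hg19) and Cufflinks for alignment and abundance, whereas the submitters' processing notes name STAR 2.5.3a and Cuffnorm, so the tool behind the FPKM files is not certain. The authors deposited FPKM values for 57815 genes per library. They also deposited a mean normalised count per gene and line, a signal value over all 4 libraries that was printed as the authors' mean. The fold changes and p-values of those tables were not used. Biological duplicates are stated for the controls, and the NRF2 siRNA libraries carry different siRNAs.

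The 12710 FPKM values under 1e-06 were set to 0. Identifiers were matched to GENCODE v44 lifted to GRCh37 (96.05%), which gave symbols, whole-gene positions and the protein-coding class. Genes at 1 FPKM or more in 2 libraries of a line (of each line for the average and the difference) were tested on log2(FPKM + 1) with limma 3.58.1 under R 4.3.3, with a prior variance that follows the mean, Benjamini-Hochberg adjustment over all genes tested and a threshold of 0.05. Each line was fitted alone on 4 libraries with 2 residual degrees of freedom, and the average and difference on the 8 libraries of A549 and H2023. Scripts were tested on simulated data. Tables and plots used Python 3.11.15, pandas 2.3.3, numpy 2.4.6 and matplotlib 3.10.9.

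The members, the gene lists and the tests were chosen with earlier results of these data known. Genes are named in the text if they passed a test, had 1 of the 12 highest NRF2 siRNA means in H460, were among the 5 highest or lowest changes in A549 or H2023, lay nearest a limit, or belonged to a list, with CAMK2N1 in any case. The rule picks 32 members, and the others were named after their values were seen, to show roles, overlaps and siRNA differences. A few genes, some of them past a test, are not reported here.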

Additional observations from a re-analysis of the deposited data

Results flagged for a closer look

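The values of PLSCR4 differed in opposite directions in A549 and H2023 with no overlap of the groups in either line, at 2.63 and 2.83 FPKM against 5.97 and 5.98 in A549 and at 8.31 and 12.2 FPKM against 8.21 and 8.09 in H2023. The log2 difference in A549 minus that in H2023 was 1.18 ± 0.28 (SE), with an adjusted p of 0.315 by limma, so the difference itself did not pass the threshold. PLSCR4 passed in neither line (adjusted p of 0.0991 in A549 and 0.619 in H2023 by limma), and its log2 fold change in H2023 lay between -0.52 and -0.02 over the alternatives, with 1 control library, at 12.2 FPKM, apart from the other values.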

How the results depend on the processing

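Among the members, the number higher was 1 in A549, 2 in H2023 and 13 for the average, and no alternative called a member lower or gave a difference between A549 and H2023. Without a filter on low values the numbers were 0, 0 and 5, with all 58 members and more genes tested. In 1 fit of all 12 libraries they were 2, 14 and 10. For H2023 the number was 1 with a pseudocount of 0.1, 1 with a filter on a mean of 0.5 FPKM, 0 with 1 prior variance for all genes, 4 without mitochondrial transcripts and 1 after quantile normalization. The cause was not tested. Leaving out 1 library at a time gave 1 to 4 in A549, 0 to 14 in H2023 and 4 to 14 for the average, where the remaining library of a group is assumed to vary like the others. Members at 1 FPKM or more in all control libraries, a choice made after seeing the data, gave 1, 2 and 7.

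The replicate numbers are not stated to pair the libraries, and same-numbered libraries deviated with correlations of -0.0321 (A549), 0.312 (H2023) and 0.163 (H460). With a replicate block the number was 14 in H2023, 1 in A549 and 15 for the average.

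The median log2 fold change of the tested members was 0.56 in A549 and 0.86 in H2023. It was 0.79 and 1.22 with a pseudocount of 0.1, 0.34 and 0.62 without a filter, and, in H2023, 0.97 without mitochondrial transcripts and 0.8 after quantile normalization. Leaving out 1 library gave 0.38 to 0.66 in A549 and 0.77 to 0.87 in H2023.

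The number of genes in H460 was 37 and 105 with control limits of 0.5 and 1 FPKM, 100 and 27 with NRF2 siRNA limits of 1.5 and 3 FPKM, and 91 to 148 without 1 library. For single named genes, 880 of 990 alternative values stayed on the same side of the threshold, 65 fell below it and 45 passed it, and no called value changed sign. With 2 libraries per group and no depth per library, no counting error could be given for the many members with low levels.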
